A study of Mus musculus with 3 samples.

Results

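Oxidative phosphorylation subunits were followed across 3 culture media in MC3T3-E1 cells, an established mouse preosteoblast line from calvaria of the strain C57BL/6. Members were all genes whose symbol in the array annotation starts with Ndufa, Ndufb, Ndufc, Ndufs, Ndufv, Uqcr, Cox4, Cox5, Cox6, Cox7, Cox8 or Atp5, together with Sdha, Sdhb, Sdhc, Sdhd, Cycs and Cyc1, where a probe set carried that symbol alone. This gave 92 genes, read by 184 probe sets, out of 18193 genes. The prefixes also took in 8 assembly factors of complex I (Ndufaf1 to Ndufaf8), which are not subunits of the finished enzyme. Cells were grown for 3 days at 37 °C in osteogenic medium with 0.6% dimethyl sulfoxide (DMSO, a solvent), in osteogenic medium without DMSO, or in normal medium. All 3 media were MEM α with 10% fetal bovine serum, and both osteogenic media also held beta-glycerophosphate at 10 mM and, at 150 µM, the vitamin C derivative ascorbic acid 2-phosphate. Total RNA was read on Affymetrix GeneChip mouse genome arrays, 1 array per medium. There was therefore no replicate, no test and no error between cultures, and precision is limited by this number of arrays.

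In oxidative phosphorylation, electrons from NADH and succinate enter the inner mitochondrial membrane through complexes I and II, pass by ubiquinone to complex III and by cytochrome c to complex IV, which reduces oxygen. The proton gradient built on the way drives the ATP synthase, complex V. Most subunits are encoded in the nucleus and are made together with the products of the mitochondrial genome, and their promoters are known for binding sites of nuclear respiratory factor 1 (NRF1), ETS factors such as GABP, YY1 and CREB. Osteoblasts are known to use both glycolysis and respiration.

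Promoters are shown for 5 members: Ndufb10, which had the largest difference with DMSO, Uqcr11, which had the highest difference of osteogenic medium with DMSO minus normal medium, Ndufa6, the member lower with DMSO, and Cox6a1 and Uqcrc1, which hold the NRF1 motif more than once. The sequences are RefSeq windows of the build GRCm38.p6, from 250 bases before to 50 after the start of the gene, 5′ to 3′ on the gene's strand. Capitals mark matches on either strand to 4 motifs, GCGCA, any base and GCGC for NRF1, CCGGAAG for ETS factors, AAGATGGC for YY1 and TGACGTCA for CREB. No capitals overlap between motifs in these windows.
Ndufb10, chr17:24724374-24724673, minus strand: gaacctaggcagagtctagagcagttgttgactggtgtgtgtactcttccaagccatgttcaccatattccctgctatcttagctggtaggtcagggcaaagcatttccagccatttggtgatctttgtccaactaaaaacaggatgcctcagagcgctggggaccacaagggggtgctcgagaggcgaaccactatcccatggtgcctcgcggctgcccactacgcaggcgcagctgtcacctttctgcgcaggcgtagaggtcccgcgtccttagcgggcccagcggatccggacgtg
Uqcr11, chr10:80406772-80407071, minus strand: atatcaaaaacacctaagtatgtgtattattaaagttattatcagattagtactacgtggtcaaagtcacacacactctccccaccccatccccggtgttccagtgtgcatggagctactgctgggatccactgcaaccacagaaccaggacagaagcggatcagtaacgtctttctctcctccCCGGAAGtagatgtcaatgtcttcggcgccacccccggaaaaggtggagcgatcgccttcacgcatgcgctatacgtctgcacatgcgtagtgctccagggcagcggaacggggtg
Cox6a1, chr5:115348909-115349208, minus strand: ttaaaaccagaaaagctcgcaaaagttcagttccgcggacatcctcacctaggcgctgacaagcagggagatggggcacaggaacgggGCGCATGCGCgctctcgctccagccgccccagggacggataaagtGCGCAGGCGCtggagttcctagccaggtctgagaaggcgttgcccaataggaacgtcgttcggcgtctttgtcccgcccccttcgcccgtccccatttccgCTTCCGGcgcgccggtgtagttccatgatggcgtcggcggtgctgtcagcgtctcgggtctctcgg
Uqcrc1, chr9:108936398-108936697, plus strand: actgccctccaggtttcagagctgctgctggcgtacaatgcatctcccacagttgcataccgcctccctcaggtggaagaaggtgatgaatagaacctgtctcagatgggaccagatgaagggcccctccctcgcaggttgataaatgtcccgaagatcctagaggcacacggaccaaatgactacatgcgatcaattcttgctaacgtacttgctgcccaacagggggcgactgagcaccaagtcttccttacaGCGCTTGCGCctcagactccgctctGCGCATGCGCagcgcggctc
Ndufa6, chr15:82354242-82354541, minus strand: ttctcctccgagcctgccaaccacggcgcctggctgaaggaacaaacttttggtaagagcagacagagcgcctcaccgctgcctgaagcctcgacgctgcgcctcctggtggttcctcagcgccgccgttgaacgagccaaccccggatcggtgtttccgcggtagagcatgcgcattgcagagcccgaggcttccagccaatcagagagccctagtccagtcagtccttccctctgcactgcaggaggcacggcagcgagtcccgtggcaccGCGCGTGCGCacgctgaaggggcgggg

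In Cox6a1 the NRF1 matches began 162 and 117 bases before the start and the ETS match 16 bases before it. In Uqcr11 the ETS match began 66 bases before the start. The NRF1 matches of Uqcrc1 began at positions 6 and 31 of the transcript, and that of Ndufa6 at position 24. Ndufb10 had none of the 4 motifs in this window, which says only that these letters are not there. Of the members, 75 matched an entry of the promoter table, with 80 windows in all. The NRF1 motif was in 22.5% of these windows, against 4.60% of all 32851 windows and 9.98% of those of genes measured on the arrays. The ETS motif was in 23.8%, against 8.86% of all windows and 17.7% of those of measured genes. The YY1 motif was in 12.5%, against 2.75% and 4.54%, and the CREB motif in 5%, against 1.79% and 3.04%. These shares describe letters and not bound sites.

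The deposited values are read as log2. A floor was set at the median of all values, 3.54, since values under it were treated as not measured, and 11203 genes lay above it on all 3 arrays. For each gene the probe set of highest mean signal over the arrays was used. Of the 92 members, 87 were above the floor on every array. The other 5 were Cox4i2, Cox6b2, Cox7a1, Cox7b2 and Ndufb4, all of them below it on every array. For Ndufb4, a subunit that complex I needs, the probe set carrying this symbol alone stood at 2.60 on each array, and probe sets carrying several symbols were not used. Across arrays the values correlated at Pearson r of 0.998 for osteogenic medium with against without DMSO and 0.997 for osteogenic against normal medium. Many deposited values were exactly equal between arrays, and 7 of the 87 members had the same value on all 3, namely Cox5a, Cox7a2l, Ndufa4l2, Sdhc, Atp5g2, Ndufa2 and Ndufs1. The comparison of DMSO with osteogenic medium and that of osteogenic with normal medium share the array of osteogenic medium, so a member read low on it is high in one and low in the other.

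With DMSO, nearly all subunits that differed were slightly higher. Of the 87 members, 68 were higher in osteogenic medium with DMSO than in osteogenic medium without it, 18 were exactly equal and 1 was lower. Among all measured genes, 40.5% were higher and 29.9% lower. The median log2 difference of the members was 0.07, beside a median of 0.00 over all measured genes. In bulk RNA, more cells of a type and more RNA per cell cannot be told apart. A difference of at least 1.2-fold, which was used to mark single genes, was reached by 1 member, against 10.8% of all measured genes, and no member reached 2-fold. The differences were thus small and nearly all of one sign. After quantile normalization of the deposited values 74 members were higher and 12 lower, and 58.0% of all measured genes were higher. After cyclic loess normalization 63 were higher and 24 lower, and 43.3% of all genes were higher, so the count of lower members depends on the scaling of the arrays. Such scaling also splits equal values, and how many of the lower members came from the 18 equal ones was not counted.

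**Figure D1:**
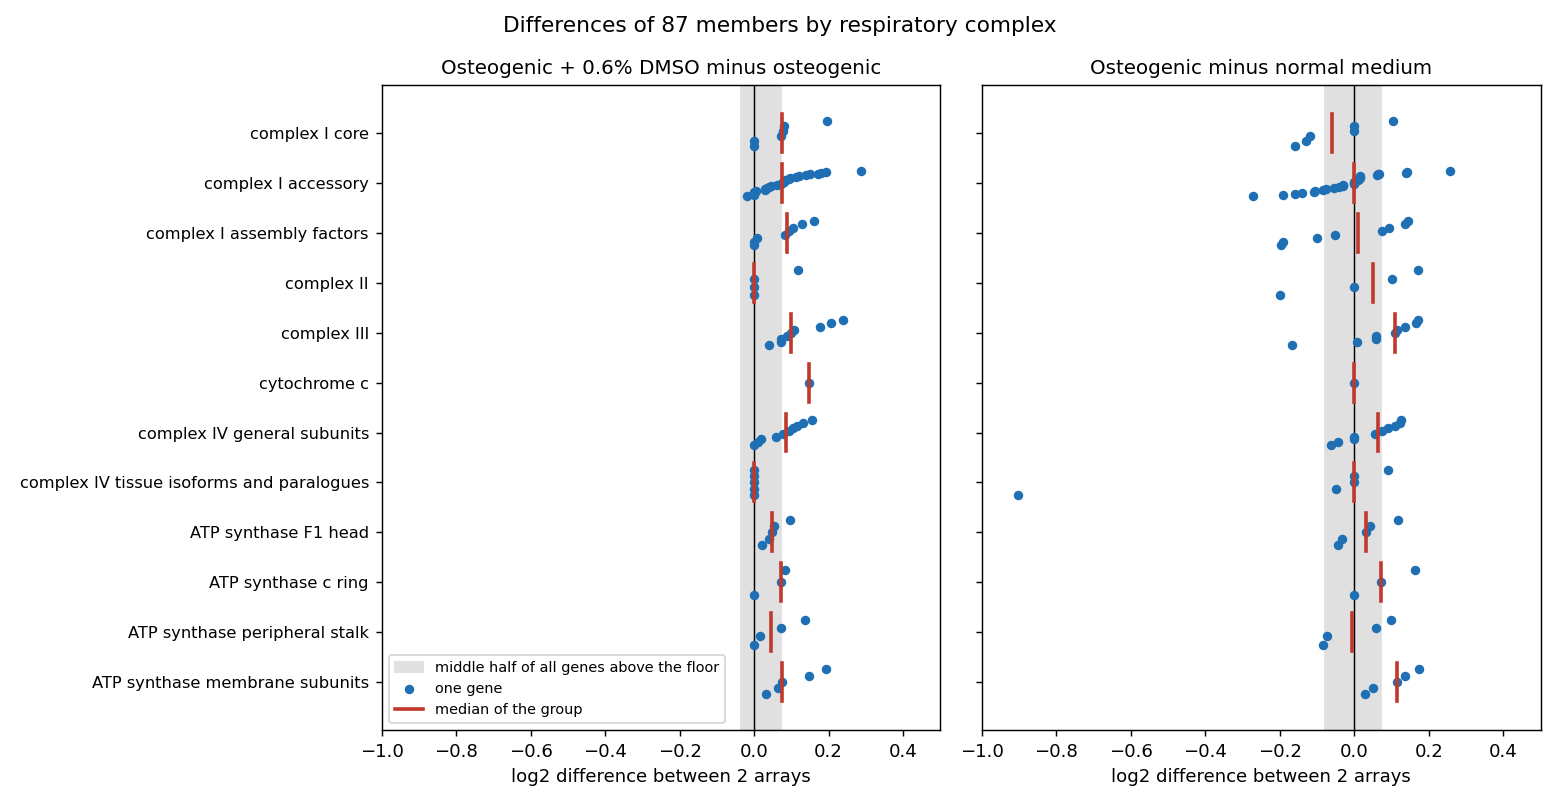
Log2 differences of the 87 measured members (points) by complex, with the median of each group (red line) and the middle part of all measured genes between the quartiles (grey band), for osteogenic medium with DMSO minus osteogenic medium (left) and osteogenic minus normal medium (right). On the left 68 points lie above 0 and 1 below, while on the right 46 lie above and 31 below.

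Complex I oxidises NADH. Its 6 measured core subunits, most of which carry the flavin or iron-sulfur clusters, had a median difference of 0.07 with DMSO, with 5 higher and Ndufs1 equal. For Ndufs8, one of the 5, the difference was 0.0008. Ndufv2, an iron-sulfur subunit of the part that takes up NADH, stood at 10.98 with DMSO and 10.79 without, a difference of 0.20, and its other probe sets differed by 0.08 and 0. Of the 27 measured accessory subunits, which surround the core, 22 were higher, 4 equal and 1 lower. Ndufb10, an accessory subunit of the membrane arm, had log2 values of 9.79 with DMSO, 9.50 in osteogenic medium and 9.69 in normal medium. Its difference with DMSO was 0.29, or 1.22-fold, and the gap of the DMSO array to normal medium was 0.10, since the osteogenic array was the low one. Ndufa6, which joins the acyl carrier protein to complex I, had 8.49 with DMSO and 8.51 in osteogenic medium. That difference of -0.02 was the sole negative one among the members. The assembly factors, which act before the enzyme is complete, had a median of 0.09 with 6 of 8 higher. Ndufaf5 was higher by 0.16 and Ndufaf2 by 0.13, while Ndufaf4 and Ndufaf6 were equal.

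Complex II oxidises succinate and belongs to the citric acid cycle as well. Of its 4 subunits 1 was higher with DMSO and 3 were equal. Sdhb, the iron-sulfur subunit, had 9.84 with DMSO and 9.72 without. Sdha, the flavoprotein, was at 8.93 on both arrays, and the membrane anchors Sdhc and Sdhd were at 9.74 and 9.31 on both. With the median over all probe sets of a gene, or after quantile normalization, 2 of the 4 were higher. Whether complex II differs from the other complexes was not tested.

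Complex III passes electrons from ubiquinol to cytochrome c. All 9 of its members were higher with DMSO, by a median of 0.10 and a range of 0.04 to 0.24. Uqcr11, a small subunit, stood at 10.61 with DMSO, 10.38 in osteogenic medium and 10.20 in normal medium. The difference of 0.24 was the largest of the complex and rests on 1 probe set. Uqcrq, another small subunit, had 10.09 with DMSO and 9.88 without, and a dim second probe set differed by 0.33. Uqcr10 had 9.09 with DMSO and 8.91 without, and its 3 probe sets differed by 0.05 to 0.31. Both core proteins, Uqcrc1 and Uqcrc2, were higher by 0.07 and 0.11, cytochrome c1 (Cyc1) by 0.09 and Uqcrh, the hinge protein, by 0.07. The Rieske iron-sulfur protein Uqcrfs1 was higher by 0.04, the smallest difference of the complex. Of the 5 second probe sets of complex III 3 were higher and those of Uqcrc2 and Uqcrh equal. Cycs, the mobile cytochrome c that also triggers apoptosis when released, had 10.69 with DMSO, against 10.55 in osteogenic medium, and all 3 of its measured probe sets were higher, by 0.11 to 0.23.

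Complex IV was split between general subunits, found in all tissues, and a second group of tissue isoforms and paralogues. Of its 10 general subunits, 9 were higher with DMSO and Cox5a was equal, with a median of 0.09. Cox7a2 had 11.46 with DMSO and 11.31 without, and Cox8a had 11.08 and 10.95. Cox6a1 was higher by 0.12, Ndufa4, now counted to complex IV, by 0.10, Cox5b by 0.09 and Cox6b1 by 0.06. Cox4i1, an early subunit of assembly, was higher by 0.02. Cox7c, one of the 9 higher general subunits, was read dimly at 4.42 with DMSO, 4.41 in osteogenic medium and 4.36 in normal medium. Its difference with DMSO was 0.01, and 220 probe sets held its value on the array of osteogenic medium. All 5 measured tissue isoforms and paralogues were exactly equal between the media with and without DMSO. They were Cox6a2 and Cox8b, known from heart and skeletal muscle, Cox8c, known from testis, Ndufa4l2, known as a hypoxia-induced paralogue, and Cox7a2l, which ties complexes III and IV together. The dim ones sat on coarse values: on the DMSO array 522 probe sets held the value of Cox8b, 131 that of Cox6a2, 74 that of Cox8c and 33 that of Ndufa4l2. A second probe set of Cox8c differed by -0.20, and those of Cox7a2l by 0.02. Cox4i2, Cox6b2 and Cox7a1, isoforms known from lung, testis and muscle, were below the floor in every medium.

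The ATP synthase had 15 of 17 members higher with DMSO and 2 equal, with a median of 0.06. In the catalytic F1 head all 5 were higher, by 0.02 for Atp5d to 0.10 for Atp5e. Atp5b, the catalytic beta subunit, had 11.39 with DMSO and 11.35 without, and Atp5a1, the alpha subunit, was higher by 0.05. For the gamma subunit Atp5c1, the rotating shaft, the difference was 0.05 in a probe set at 11.37 with DMSO, but a dim second probe set differed by -0.43. In the c ring, Atp5g1 and Atp5g3 were higher by 0.07 and 0.08 and Atp5g2 was equal at 10.20. These genes encode the same mature protein. In the peripheral stalk, Atp5h was higher by 0.14 and Atp5o by 0.07, while Atp5j was equal. Among the membrane subunits, which bend the membrane and join dimers, all 5 were higher. Atp5md stood at 10.22 with DMSO, 10.03 in osteogenic medium and 9.91 in normal medium, and Atp5k was higher by 0.15 with DMSO.

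**Figure D2:**
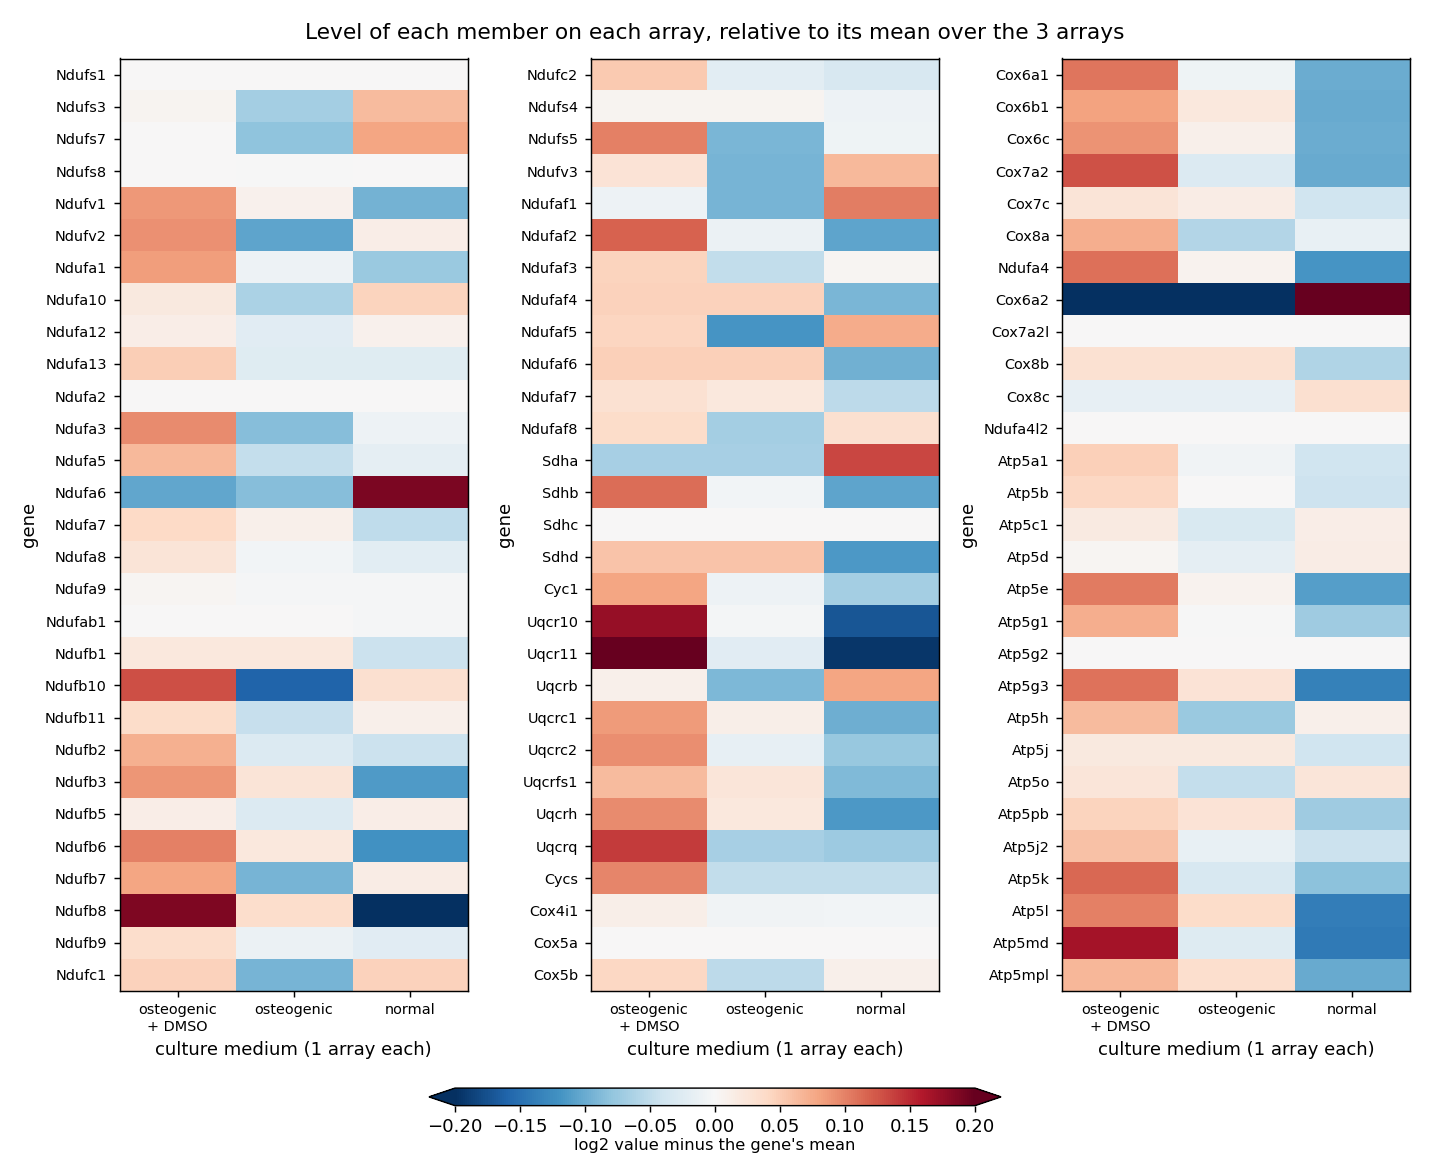
Log2 value of each of the 87 measured members on each array minus its mean over the 3 arrays (1 array per medium, no error), ordered by complex. The DMSO column is mostly red, while Ndufa6, Sdha and Cox6a2 are among the members with their highest value in normal medium, and the colour scale stops at 0.20 in size.

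Single differences were similar in size to the scatter between probe sets of a gene. In 48 members with a second probe set above the floor, the second difference with DMSO was subtracted from the first. The result had an SD of 0.10, more than the median difference of 0.07, and a median size of 0.06. Second probe sets share the RNA and the arrays with the first and may share probes, which was not checked. With DMSO 37 of 48 were higher, 5 lower and 6 equal, while over the second probe sets of all genes 38.2% were higher. The median of these members was 0.06. The widest disagreement was that of Atp5c1, followed by Cox5b (from -0.17 to 0.09 over 5 probe sets), Uqcr10 and Atp5a1 (0.05 to 0.26), and by Ndufa10, whose probe sets gave 0.08 and -0.12.

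**Figure D3:**
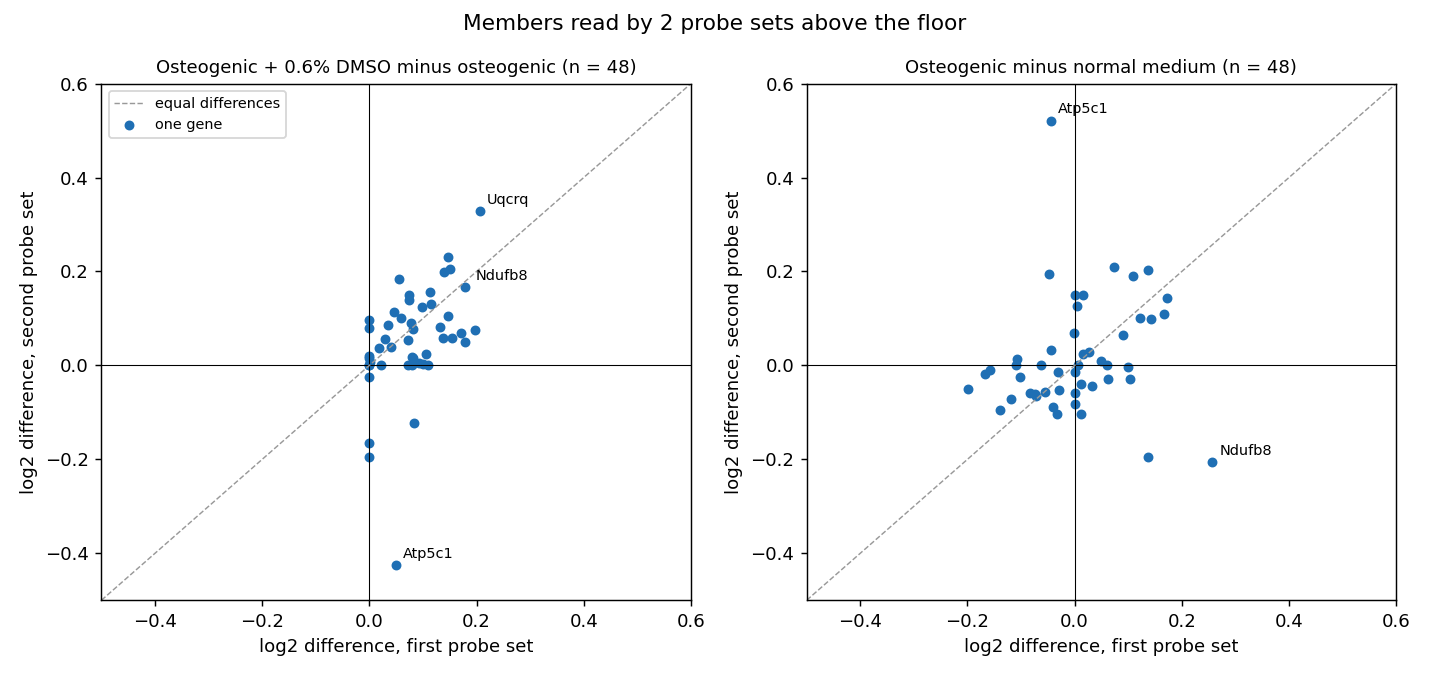
Log2 difference of the first against the second probe set by mean level for the 48 members with at least 2 probe sets above the floor, for DMSO (left) and osteogenic medium (right), with the line of equal differences. On the left 37 of 48 second probe sets lie above 0, and Atp5c1 is far from the line in both panels.

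Members were mostly read at high signal, and the share of genes higher with DMSO also depended on the level. Of the 1451 genes with a mean log2 value of at least 9, 51.6% were higher with DMSO. Of the 69 members in this range, 60 were higher, 9 equal and 0 lower, with a median of 0.07 beside 0.01 for these genes. The 18 probe sets of the hybridisation spikes, added in equal amounts, differed by a median of -0.03 with DMSO (range -0.10 to 0.02). The part of signal level and array scaling in the result was not tested beyond these values.

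Osteogenic medium alone gave no such one-sided picture. Against normal medium, 46 of the 87 members were higher, 31 lower and 10 equal, with a median of 0.01. Of all measured genes 36.2% were higher and 38.6% lower, and the median was 0.00. Past 1.2-fold were 2 members, Cox6a2 and Ndufa6, both lower, against 16.4% of all measured genes. In second probe sets 19 of 48 members were higher and 25 lower, beside 31.3% of genes higher, and the median was -0.0063. With each array centred on the median of its genes above the floor, 58 of the 87 members and 62.0% of all genes were higher, and 29 members lower. This centring raised every difference by only 0.005, so that the 10 equal members counted as higher. On the osteogenic array the spikes read 0.10 higher at the median, with differences of 0 to 0.29. Their part in the member differences was not tested.

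By complex, the counts in osteogenic medium were as follows, and differences between complexes were not tested. In complex I, 13 of 33 measured subunits were higher and 16 lower than in normal medium, and 4 of the 6 core subunits were lower. Ndufa6 had 8.51 in osteogenic medium and 8.79 in normal medium, a difference of -0.27 in its only probe set. Ndufb8, an accessory subunit of the membrane arm, had 10.55 in osteogenic medium and 10.30 in normal medium, while a dim second probe set gave -0.21. Ndufb6 was higher by 0.14 and Ndufb10 differed by -0.19. Among assembly factors 4 were higher and 4 lower, from -0.20 for Ndufaf1 and -0.19 for Ndufaf5 to 0.14 for Ndufaf4 and Ndufaf6, and the second probe set of Ndufaf4 gave -0.20.

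In complex II, Sdha had 8.93 in osteogenic medium and 9.13 in normal medium, a difference of -0.20, while its other measured probe set differed by -0.05. Sdhd was higher by 0.17 and Sdhb by 0.10, and Sdhc was equal. In complex III, 8 of 9 members were higher than in normal medium, and the median was 0.11, led by Uqcr11 and Uqcr10, both at 0.17, and by Uqcrh at 0.14. Uqcrb, a small subunit near the ubiquinone site, differed by -0.17, its other probe set by -0.02. Of the 5 second probe sets of the complex, 2 were higher, 2 equal and 1 lower.

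In complex IV, 6 of the 10 general subunits were higher, with Ndufa4 at 0.13 and Cox6b1 at 0.12, and Cox5b at -0.06. The dim isoform gene Cox6a2 had the largest difference of all members, -0.90, with 4.81 in osteogenic medium and 5.71 in normal medium, 1.87-fold lower. Its other probe set was below the floor on all 3 arrays and differed by -0.74. Exactly the same value as for Cox6a2 was held by 132 probe sets on the array of osteogenic medium and by 57 on that of normal medium, so these dim values come in coarse steps. The 8 muscle markers had a summed linear signal of 93.8 with DMSO, 92.8 in osteogenic medium and 93.7 in normal medium. Of these markers 3 were above the floor on each array (Des, Actc1 and Ckm), and Myod1, Myog, Actn2, Myh3 and Tnnt2 were below it. In the ATP synthase, 12 of 17 members were higher and 4 lower. All 5 membrane subunits were higher, with Atp5l at 0.17, and so was Atp5g3 (0.16), while Atp5h and Atp5o differed by -0.08 and -0.07.

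Between osteogenic medium with DMSO and normal medium, a comparison that does not use the array of osteogenic medium alone and equals the sum of the other differences, 64 members were higher, 13 lower and 10 equal. Among all measured genes 40.6% were higher and 35.6% lower. The median of the members was 0.08. The 18 spike probe sets also read higher on the DMSO array than on that of normal medium, by a median of 0.06 (range 0.01 to 0.18). Their part in these member differences was not tested. Past 1.2-fold were 6 members, against 22.7% of measured genes. Higher were Uqcr11 (0.41), Ndufb8 (0.41), Uqcr10 (0.34) and Atp5md (0.31), and lower were Cox6a2 (-0.90) and Ndufa6 (-0.29). With the median over all probe sets of a gene, Ndufb8 stood at 0.20 and Uqcr10 at 0.16, both below 1.2-fold, and the second probe set of Ndufb8 gave 0. Of genes with a mean of at least 9, 49.6% were higher, and of the members in this range 54 of 69. Complex III had the highest median of the 5 complexes here, 0.18 over 9 members, and the core subunits of complex I had a median of 0.00 with 2 higher and 2 lower. In second probe sets, 32 of 48 members were higher, beside 36.1% of all second probe sets. With each array centred on the median of its genes above the floor, 75 of 87 members and 64.8% of all genes were higher, and 12 members lower. Here too the centring raised every difference by only 0.005, so that the 10 equal members counted as higher.

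Genes that serve the same organelle were counted beside the members with DMSO. For comparison, 40.5% of all measured genes were higher and 29.9% lower. Of genes with a mean log2 value of at least 9, 51.6% were higher. The mitochondrial ribosome, which makes the subunits encoded in mitochondrial DNA, had 59 of 76 genes higher, 5 lower and a median of 0.10. Mrps25 was higher by 0.35 and Mrpl20 by 0.31. Import and cristae genes had 21 of 31 higher with a median of 0.04, among them Apool (0.28) and Timm8b (0.24), while the import receptor Tomm20 differed by -0.19. Assembly factors of all complexes, a list that shares 8 genes with the members, had 24 of 42 higher and 4 lower. Cox19, which serves copper delivery to complex IV, was higher by 0.35 and Sdhaf1, an assembly factor of complex II, by 0.22. The citric acid cycle and pyruvate list had 15 of 24 higher and 4 lower. Citrate synthase (Cs) was higher by 0.19, and Pdk4, a kinase that restrains pyruvate oxidation, differed by -0.81. Of the carriers, 5 of 7 were higher, with the ADP/ATP carrier Slc25a5 at 0.22.

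Glycolysis genes, which make ATP without oxygen, had 7 of 15 higher and 8 lower with DMSO, with a median of -0.02. Ldha differed by 0.14 and Eno2 by -0.88. Eno2 was dim, at 3.93 with DMSO and 4.81 in osteogenic medium. Values this near the floor of 3.54 come in coarse steps. Coenzyme Q synthesis had 6 of 12 higher, 1 lower and 5 equal, beside 40.5% of all measured genes higher and 29.9% lower. Cytosolic ribosomal proteins had 8 of 40 higher, 18 lower and 14 equal. Regulators of mitochondrial biogenesis had 8 of 28 higher, 6 lower and 14 equal. Nrf1, the gene of nuclear respiratory factor 1, was at 5.41 on each array, and Gabpa, an ETS factor subunit, was at 8.78 in both osteogenic media. Ppargc1a, the coactivator PGC-1alpha, was below the floor on every array, Ppargc1b was equal at 5.45, and Tfam, which packs mitochondrial DNA, was higher by 0.09. Members with the NRF1 motif had a median difference of 0.07 with DMSO (11 of 16 higher) and those of the promoter table without it 0.08 (48 of 55 higher). With the ETS motif the median was 0.10 (17 of 19 higher), without it 0.07 (42 of 52). For YY1 these were 0.08 (8 of 10) and 0.07 (51 of 61), and for CREB 0.09 (4 of 4) and 0.07 (55 of 67). Differences between these groups were not tested.

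**Figure D4:**
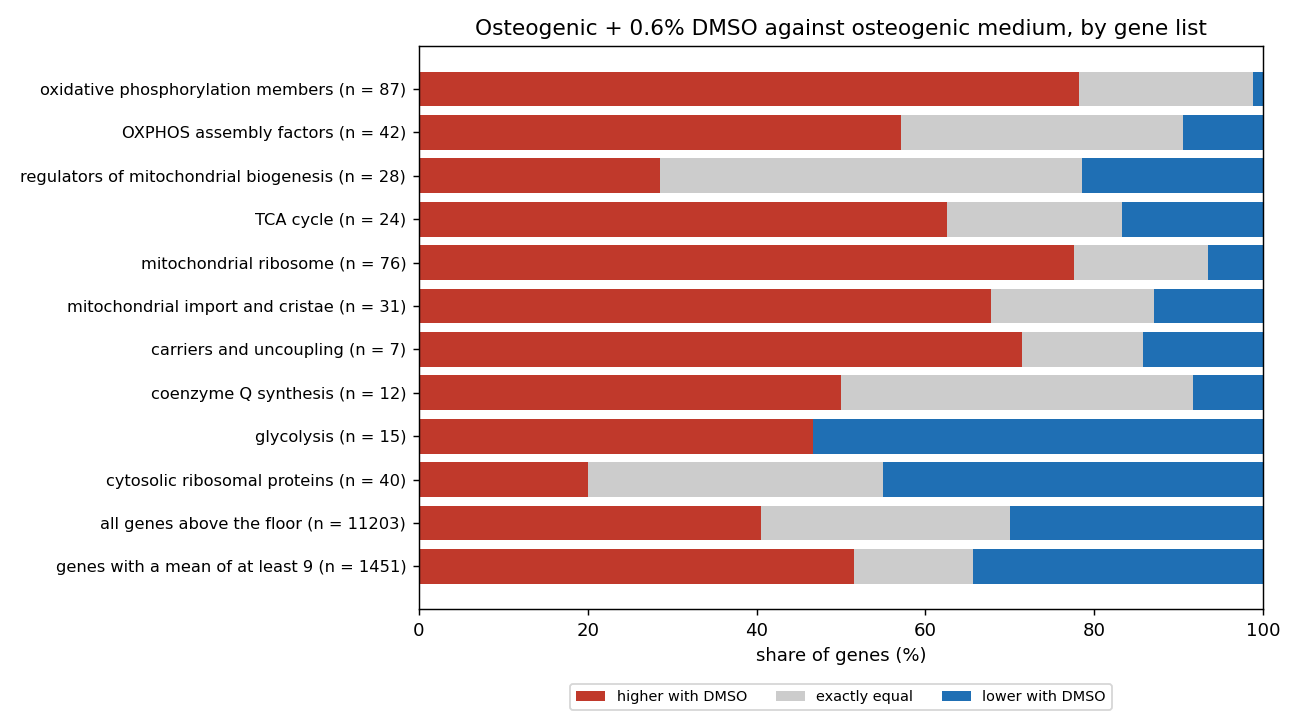
Share of measured genes higher, exactly equal and lower in osteogenic medium with DMSO than in osteogenic medium. Bars are given for the members, 9 related lists, genes with a mean log2 value of at least 9 and all measured genes. The members and the mitochondrial ribosome have the widest red bars, and the cytosolic ribosomal proteins the narrowest.

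Markers of the labelled cell type were present. Of 10 osteoblast markers, 6 had a probe set with that symbol alone and all 6 were above the floor on each array. Their summed linear signal was 26938 with DMSO, 25596 in osteogenic medium and 23401 in normal medium, most of it from the bright genes Col1a1, Col1a2 and Sparc. Dimmer markers differed by more. Alpl, the alkaline phosphatase of mineralising cells, had 9.02 with DMSO, 8.31 in osteogenic medium and 6.61 in normal medium. Ibsp, bone sialoprotein, had 10.56 with DMSO, 10.17 in osteogenic medium and 7.998 in normal medium. Sp7, the osteoblast transcription factor osterix, had 7.72 with DMSO, 7.30 in osteogenic medium and 6.42 in normal medium. All 3 were thus highest with DMSO and lowest in normal medium, and their part in the member differences was not tested. Of the adipocyte markers 1 of 5 was above the floor on each array (Cebpa), and Ucp1 of brown fat was below it on all. The endothelial list had 0 of 5 above the floor with DMSO, 0 in osteogenic medium and 1 in normal medium (Kdr), and no red blood cell marker was above it. Of the chondrocyte markers 3 of 5 were above the floor on each array, with a summed linear signal of 475 with DMSO, 477 in osteogenic medium and 361 in normal medium. Among them Col2a1, the collagen of cartilage, had 8.08 with DMSO, 8.01 in osteogenic medium and 7.16 in normal medium, and Sox9 had 7.42 with DMSO and 7.52 in both other media, while Acan and Matn1 were below the floor. Of the macrophage and osteoclast markers 2 of 6 were above it, Csf1r and the protease gene Ctsk, which had 9.29 with DMSO, 9.46 in osteogenic medium and 9.35 in normal medium. Ptprc, Adgre1, Cd68 and Acp5 were below it.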

How the data were processed

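Per the labels' protocols, total RNA was copied into biotin-labelled cRNA with a 3' IVT kit and hybridised to 3 arrays, 1 per medium. The authors deposited 1 value per probe set, read here as log2 from the range of 0.652 to 13.4. The sources used here do not give the summarisation, normalization or log base. Medians of 3.54, 3.57 and 3.54 in osteogenic medium with DMSO, osteogenic medium and normal medium show arrays already on a common scale, so a change in total RNA per cell would not be seen. Of 45037 probe sets that are not controls, 34945 had 1 symbol in the platform annotation and were used, and 37.4% had equal values on all 3 arrays. Differences are plain log2 differences between arrays, with no test. Alternatives were other choices of probe set, a floor at the 40th or 60th percentile or none, quantile normalization and cyclic loess. Further ones were centring on the median of genes above the floor, equal values left out and subunits only. Named genes were the highest and lowest differences per complex, complex II, the cytochromes c, tissue isoforms, members past 1.2-fold and those whose probe sets disagree most, with up to 3 genes per related list. Other members, such as Atp5b, Ndufs8, Cox7c and Uqcrc1, and some list genes are named beside them after their values were seen. Members and lists were chosen with earlier results of these data known, including that oxidative phosphorylation genes were slightly higher with DMSO, so that direction is no independent support. Only the 1.2-fold mark was tested on simulated data, with larger shifts than those seen here and without equal values. Counts of small differences were not covered by it. Tools were Python 3.11.15, numpy 2.4.6, pandas 2.3.3, matplotlib 3.10.9, R 4.3.3 and limma 3.58.1.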

Additional observations from a re-analysis of the deposited data

How the results depend on the processing

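The count of members higher with DMSO was recomputed under 11 other settings and 2 more added after the data were seen (genes with a mean of at least 9, and second probe sets). Over all of them, 72.4% to 98.6% of members were higher than in osteogenic medium without DMSO, and the median stayed between 0.05 and 0.08. Of all genes, 32.2% to 58.0% were higher, but these extremes come from different settings. The 98.6% arose with equal values left out, where 57.5% of genes were higher. Within a single setting the smallest gap was 27.0 percentage points. For osteogenic against normal medium the shares were 39.6% to 66.7% of members and 28.7% to 62.0% of genes, with a smallest gap of 4.7 percentage points. With every probe set counted on its own, 119 of 159 were higher with DMSO against osteogenic medium, 79 in osteogenic against normal medium and 114 with DMSO against normal medium, where more features were counted. In second probe sets the counts were 37, 19 and 32 of 48, and the median of osteogenic minus normal medium turned to -0.0063. The number of members lower with DMSO moved with the scaling: it was 1 as deposited, 12 after quantile normalization and 24 after cyclic loess, where 74 and 63 of 87 were higher. Both normalizations also split values that were equal as deposited. Centring on the median of genes above the floor moved the members higher in osteogenic medium to 58 and the genes to 62.0%. It raised these differences by only 0.005, which turned equal values into higher ones. With the second probe set, named genes changed sign with DMSO for Atp5c1 (-0.43) and Ndufa10 (-0.12), and in osteogenic against normal medium for Atp5c1 (0.52), Ndufb8 (-0.21), Ndufaf4 (-0.20), Cox8c (0.20), Atp5a1 (-0.04) and Cox8a (0.03). With DMSO against normal medium Ndufaf4 did so (-0.10). Of the values of named genes under other settings 40 moved beyond the scatter between probe sets and 752 did not. Some could not move: a gene with 1 probe set keeps its value under the median over probe sets, and centring shifts all genes alike. These counts are therefore no measure of stability. No paired analysis was possible because there was 1 array per medium. Signals near the floor come in coarse steps: of values from 4.5 to 6, 33.9% to 41.7% were distinct, and of values of at least 9, 83.6% to 90.6%.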
